A study of Mus musculus with 2 samples.

Results

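The genes described here are 9 recruiters of the Ccr4-Not deadenylase complex, chosen by symbol from the 32286 features of the count tables. They were the Tob/Btg genes Tob1, Tob2, Btg1, Btg2 and Btg3, the AU-rich element binding genes Zfp36l1 and Zfp36l2, the Pumilio gene Pum2, and Rc3h1, which encodes Roquin-1. All 9 symbols were present in both libraries, and all 9 reached the level required for a measured gene in every comparison.

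Ccr4-Not is the main cytoplasmic complex that shortens the poly(A) tails of mRNAs, a step that limits how long an mRNA lasts and how well it is translated. The complex has little choice of target by itself, and adaptors bring it to particular mRNAs. Tob and Btg proteins bind the catalytic subunits Cnot7 and Cnot8 directly, and Tob1 and Tob2 also bind the poly(A)-binding protein Pabpc1. Zfp36 family proteins recognise AU-rich elements in 3′ UTRs, Pumilio proteins recognise a short UGUA-containing motif, and Roquin recognises stem-loops, and each of them contacts the complex.

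The study mixed wild-type (WT) and Cnot8 knockout (KO) mouse cells in equal numbers and sequenced the mixtures by droplet-based 3′ scRNA-seq. Embryonic stem cells (ESCs, 0 h) gave 1 library and epiblast-like cells taken at 48 h (48h-EpiLCs) gave the other, so no comparison has replicates. The mixture asks how loss of Cnot8 bears on the passage from the naïve to the formative state of pluripotency. The Cnot8 mutation was made in ICR mice, and the strain of the WT line is not given in the sources used here.

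WT cells carried the ROSA mT/mG allele, from which tdTomato is transcribed, and had an intact Cnot8. The KO line came from a blastocyst of a cross between Cnot8 heterozygotes made with Cas9 and a guide RNA against exon 2, and was propagated from a picked colony. ESCs were kept in serum/LIF. 48h-EpiLCs were grown on Matrigel in N2B27 with activin A, bFGF and 1% KSR.

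Barcodes had to show at least 1000 genes, with no more than 10% of UMIs from mitochondrial genes, which left 11054 of 13184 barcodes in the ESC library and 9400 of 12427 in the 48h-EpiLC library. A cell was called WT when it had at least 1 tdTomato UMI and 0 UMIs of the Y-linked genes Ddx3y, Eif2s3y, Kdm5d and Uty, and KO when it had 0 tdTomato UMIs and at least 2 Y-linked UMIs. This rule placed 435 WT and 2978 KO ESCs and 368 WT and 2977 KO 48h-EpiLCs, or 30.9% and 35.6% of the kept cells. Their summed UMIs were 6154790, 44110356, 6219834 and 59291903, in the same order. Median UMIs per cell were between 13151 and 17628. The libraries shared 41 barcodes. Sex chromosomes, reporter, derivation and genotype all differ between the lines and cannot be told apart, and neither can stage and library.

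The pluripotency markers Pou5f1, Sox2, Tdgf1, Utf1, Dppa5a and Zfp42 were all present in all 4 classes, with summed levels of 3521 to 5212 CPM (UMIs of a gene per 1000000 UMIs of the class). Markers of other cell types were uneven. The 8 feeder fibroblast markers together reached 41.5 CPM in KO ESCs, 11.2 CPM in WT ESCs, 7.56 CPM in WT 48h-EpiLCs and 10.8 CPM in KO 48h-EpiLCs. Of KO ESCs, 128 cells (4.3%) carried at least 3 markers of feeders, primitive endoderm or 2-cell-like cells, against 7 WT ESCs (1.61%), 16 KO 48h-EpiLCs (0.537%) and 0 of 368 WT 48h-EpiLCs, which allows a share of up to 0.815%. Lum was at 0 in WT ESCs, and Col3a1, Postn and Lum were at 0 in WT 48h-EpiLCs. The primitive endoderm list summed to 17.7 CPM in WT and 31.7 CPM in KO ESCs, with 4.50 CPM (WT) and 4.99 CPM (KO) at 48 h, and the 2-cell-like list to between 1.77 and 9.26 CPM. The mesendoderm list stayed between 4.06 and 10.3 CPM, with T and Mixl1 at 0 in WT ESCs.

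Cnot8, the targeted gene, was not lower in KO cells. Its level was 43.1 CPM in WT ESCs, 72.1 CPM in KO ESCs, 49.7 CPM in WT 48h-EpiLCs and 62.6 CPM in KO 48h-EpiLCs. The log2 ratio of KO over WT was 0.74 (95% interval 0.56 to 0.93) in ESCs and 0.33 (0.17 to 0.51) in 48h-EpiLCs. These are 3′ tags and the guide was directed at exon 2, so Cnot8 mRNA checks neither the mutation nor the line of a cell. The intervals here and below are exact binomial intervals of the ratio and, for levels, exact Poisson intervals. They cover counting error only, not the variation between cultures. Cnot7, the paralogue that Tob and Btg proteins also bind, stood between 38.3 and 44.5 CPM in all 4 classes, and Pabpc1 between 1036 and 1125 CPM. Cnot1, the scaffold of the complex, was at 129 CPM in WT and 136 CPM in KO ESCs, and at 97.9 and 102 CPM in WT and KO 48h-EpiLCs.

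AU-rich and Pumilio motifs in the 3′ UTRs of the members were listed because the proteins that bind such motifs are themselves members. The AU-rich core TATTTAT, searched on the mRNA strand with overlapping matches allowed, was present in 27.8% of the longest 3′ UTRs of 20830 mouse genes. Zfp36l1 and Zfp36l2 each held 3 copies, in 3′ UTRs of 1835 and 1822 bases. Of the 3′ UTRs within 20% of those lengths, 4.31% held at least 3 copies. Btg2 held 1 copy, at base 103 after the stop codon, while 42.7% of 3′ UTRs of similar length held at least 1. Tob1, Btg1 and Btg3 held none in the annotated 3′ UTR. The sites are given on GRCm38, from the GENCODE M21 transcripts, in mRNA orientation with the motif in capitals and 11 bases on either side.
Zfp36l1, chr12:80108422-80108450, minus strand: ttatcaaaacgTATTTATtgccaaactat
Zfp36l1, chr12:80108381-80108409, minus strand: aattttgttcaTATTTATcgggatgacaa
Zfp36l1, chr12:80108167-80108195, minus strand: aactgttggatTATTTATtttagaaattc
Zfp36l2, chr17:84184914-84184942, minus strand: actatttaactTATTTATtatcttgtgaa
Zfp36l2, chr17:84184866-84184894, minus strand: tgtccatactgTATTTATcgagtatgatg
Zfp36l2, chr17:84184680-84184708, minus strand: attgtatgtaaTATTTATttcattaattt
Btg2, chr1:134077249-134077277, minus strand: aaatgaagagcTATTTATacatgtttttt

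The Pumilio motif TGTANATA (N stands for any base) was present in 23.4% of the 20830 3′ UTRs and was searched in the same way. Pum2 held 2 copies in its own 3′ UTR of 2861 bases, and 14.1% of 3′ UTRs of similar length held at least as many. Copies in the other members are not listed here. The 2 sites of Pum2 are given in the same format.
Pum2, chr12:8750154-8750183, plus strand: gtttatagagaTGTATATAgaattatagtt
Pum2, chr12:8750407-8750436, plus strand: atgtacagaatTGTATATActtataattgt

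Zfp36l1 had the largest stage ratios among the members in both lines and the largest line ratio in ESCs. Its level was 62.2 CPM (95% interval 56.2 to 68.8) in WT ESCs, 31.7 CPM (30.03 to 33.4) in KO ESCs, 18.3 CPM (15.1 to 22.02) in WT 48h-EpiLCs and 13.5 CPM (12.6 to 14.5) in KO 48h-EpiLCs. The 4 intervals do not overlap, and the order runs from WT ESCs down to KO 48h-EpiLCs. Zfp36l1 lies on chromosome 12 (80107754 to 80113013, minus strand). A UMI of it was found in 51.3% of WT ESCs and 32.7% of KO ESCs, and in 25.1% and 15.0% after every cell had been thinned to 5000 UMIs.

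In ESCs, Zfp36l1 was 1.965-fold lower in KO cells (log2 ratio -0.97, interval -1.14 to -0.81). A gene was called when its ratio lay at least 0.5 (log2) above or below the median of all genes with a mean of at least 5 CPM, and that median was 0.13 here. By this rule 2 of 9 members, Zfp36l1 and Btg3, were lower in KO ESCs, against 11.1% of 9277 measured genes. No member was called higher, against 12.2% of genes. In 48h-EpiLCs the same 2 of 9 members were lower, with 8.69% of 9385 genes called lower and 9.23% called higher. Zfp36l1 was there 1.36-fold lower (log2 ratio -0.44, interval -0.72 to -0.14). That call sat at the edge of the threshold, 0.52 below the median of all genes, and it was lost in 6 of 12 alternative settings.

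**Figure D1:**
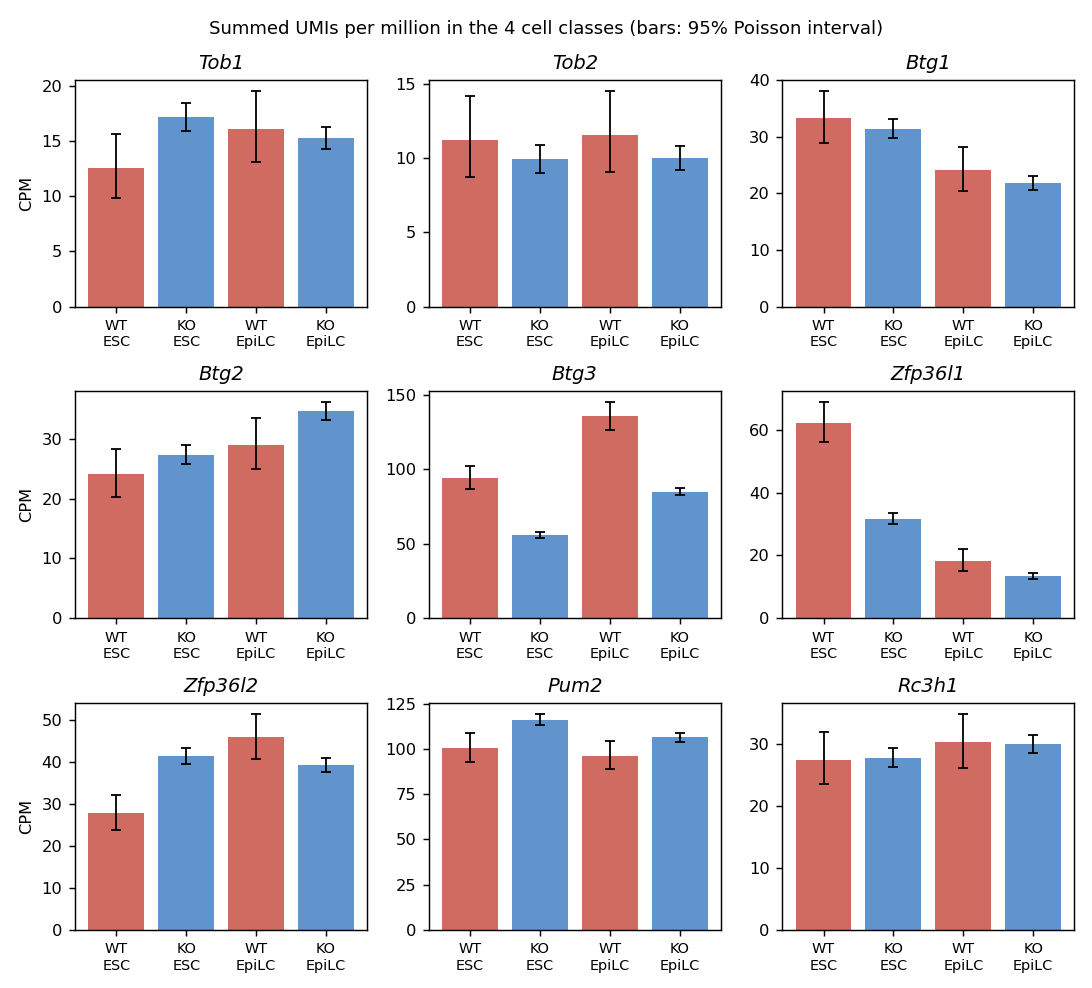
Each panel gives the level of 1 member in CPM (y axis from 0) in the 4 cell classes on the x axis, with bars for summed UMIs and error bars for the exact 95% Poisson interval. Zfp36l1 stands at 62.2 CPM in WT ESCs and 13.5 CPM in KO 48h-EpiLCs, and Btg3 is higher in WT than in KO cells at both stages.

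From ESCs to 48h-EpiLCs, Zfp36l1 was 3.40-fold lower in WT cells (log2 ratio -1.76, interval -2.08 to -1.46) and 2.34-fold lower in KO cells (-1.23, -1.36 to -1.10). Its stage ratio was lower than that of all but 1.97% of 9242 measured genes in WT cells and all but 3.02% of 9478 in KO cells. The comparisons by line and by stage use the same 4 class sums, so their values are not independent. In all 12 alternative settings the stage call of Zfp36l1 held in each line. It was the only member called lower with stage in WT cells (16.3% of genes), where Zfp36l2 was the only one called higher (16.7% of genes). In KO cells Zfp36l1 and Btg1 were called lower (13.3% of genes) and Btg3 higher (13.2% of genes).

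Zfp36l2, the close relative of Zfp36l1, followed another pattern. Its level was 27.8 CPM (23.8 to 32.3) in WT ESCs, 41.5 CPM (39.6 to 43.5) in KO ESCs, 46.0 CPM (40.8 to 51.6) in WT 48h-EpiLCs and 39.3 CPM (37.8 to 41.0) in KO 48h-EpiLCs. WT ESCs stood below the other 3 classes, and the intervals of those 3 overlap. The stage ratio was 1.66-fold higher in WT cells (log2 0.73, interval 0.45 to 1.01) and -0.08 (-0.17 to 0.01) in KO cells. KO over WT was 0.58 (0.35 to 0.81) in ESCs and -0.23 (-0.40 to -0.04) in 48h-EpiLCs, neither of which passed the 0.5 threshold around the median. The gene lies on chromosome 17 (84183931 to 84187947, minus strand), and no UMI was counted for the annotated antisense transcript that overlaps it.

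How far the line ratio depended on stage was described by the difference of the 2 KO over WT ratios, each set against its median of all genes. The difference (48h-EpiLC minus ESC) was 0.59 for Zfp36l1 (95% interval 0.26 to 0.91) and -0.75 for Zfp36l2 (-1.04 to -0.46). Zfp36l1 was thus less reduced in KO cells at 48 h, and Zfp36l2 turned from higher to lower. These were 2 of 9 members past 0.5, 1 in each direction, beside 7.26% of 8827 genes with a positive and 7.41% with a negative difference of that size. Tob1 came next at -0.48 (-0.93 to -0.03), just under the threshold, and the other 6 members lay between -0.01 and 0.14. When cells of at least 15000 UMIs were assigned by Y-linked UMIs alone, neither Zfp36l1 (0.43) nor Zfp36l2 (-0.48) passed. After thinning to 5000 UMIs the difference of Zfp36l1 was 0.34 and that of Zfp36l2 -0.80, and Tob1 passed at -0.60.

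**Figure D2:**
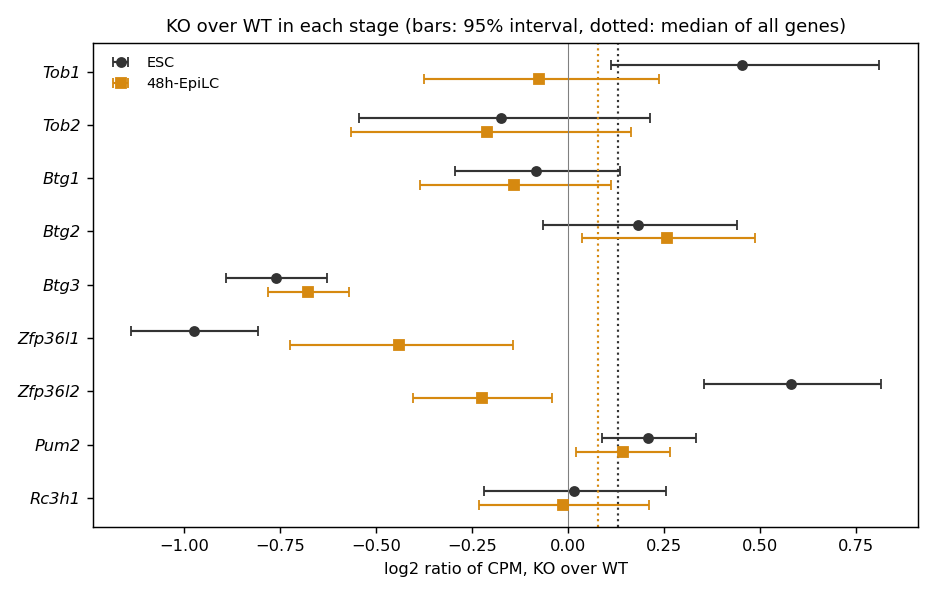
Points give the log2 ratio of CPM, KO over WT (x axis), of each member (y axis) in ESCs and 48h-EpiLCs, bars the exact 95% interval of counting error, and dotted lines the median of all measured genes at each stage. Btg3 and Zfp36l1 lie to the left at both stages, and the 2 points of Zfp36l2 stand on opposite sides of 0 (0.58 and -0.23).

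Btg3 was lower in KO cells at both stages and higher in 48h-EpiLCs than in ESCs in both lines. Btg3 encodes a member of the Tob/Btg family that is anti-proliferative when overexpressed. Its level was 94.6 CPM (87.03 to 102.6) in WT ESCs, 55.8 CPM (53.7 to 58.1) in KO ESCs, 135.9 CPM (126.8 to 145.3) in WT 48h-EpiLCs and 85.02 CPM (82.7 to 87.4) in KO 48h-EpiLCs. WT ESCs and KO 48h-EpiLCs were close (intervals overlap at their ends), and the other classes were apart. The KO over WT ratio was -0.76 (-0.89 to -0.63) in ESCs and -0.68 (-0.78 to -0.57) in 48h-EpiLCs, that is, 1.69-fold and 1.60-fold lower. The stage ratio was 0.52 (0.37 to 0.68) in WT cells, just under the threshold around the median, and 0.61 (0.54 to 0.68) in KO cells.

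As a group, the genes of chromosome 16, on which Btg3 lies (78332637 to 78377192, minus strand), were lower in KO cells. The median KO over WT log2 ratio of its measured genes was -0.30 in ESCs (312 genes) and -0.31 in 48h-EpiLCs (317 genes). The medians of the 18 other autosomes lay between 0.06 and 0.20 in ESCs and between 0.02 and 0.14 in 48h-EpiLCs. On chromosome 16, 76.9% of the genes had a ratio below 0 in ESCs and 82.6% in 48h-EpiLCs, against 34.6% and 38.7% on the other autosomes. Against the median of its own chromosome, Btg3 was 0.46 lower in ESCs and 0.37 lower in 48h-EpiLCs, so it no longer passed the 0.5 threshold. This reference was added after the data had been seen. Between the stages, chromosome 16 had a median ratio of 0.03 in WT cells and 0.00 in KO cells, and the stage call of Btg3 in KO cells held (0.60 above its chromosome). What sets chromosome 16 apart between the lines was not tested.

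**Figure D3:**
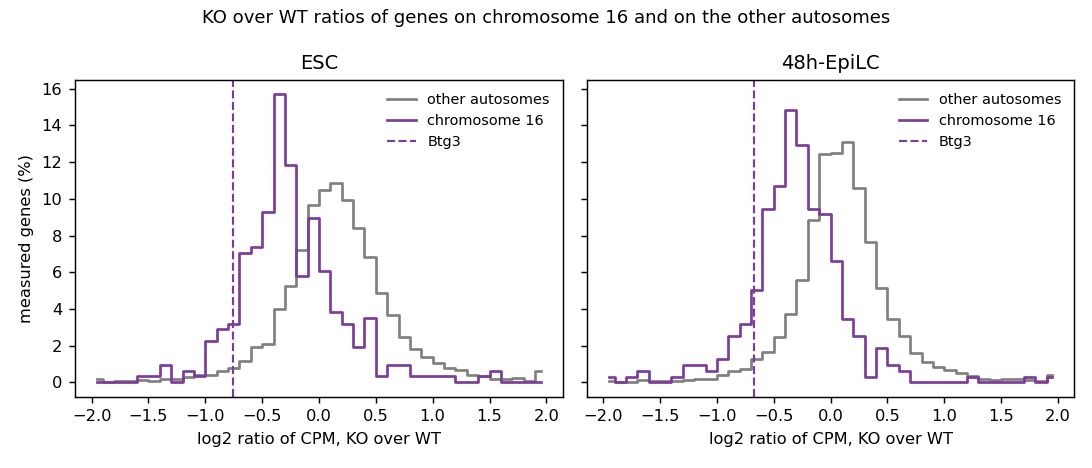
Lines give the percentage of measured genes (y axis) at each log2 ratio of CPM, KO over WT (x axis, in bins of 0.1, values beyond 2 placed in the end bins), for chromosome 16 and for the other autosomes, with Btg3 as a dashed line. The chromosome 16 genes are shifted to the left at both stages (medians -0.30 and -0.31), and Btg3 lies at their 8.65th and 12th percentile.

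Cxadr, which overlaps Btg3 on the opposite strand, moved in the same direction. It stood at 14.0 CPM in WT ESCs and 7.21 CPM in KO ESCs, and at 18.0 CPM in WT 48h-EpiLCs and 6.90 CPM in KO 48h-EpiLCs. Use of read strand in the counting is not given in the sources used here, so reads from the overlap cannot be assigned with certainty. The only other measured gene within 1000000 bases of Btg3, D16Ertd472e, had KO over WT ratios of -0.82 and -0.73. Both neighbours were looked at after the values of Btg3 were known.

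Btg1 and Btg2, a pair of closely related immediate-response genes with anti-proliferative activity, did not differ between the lines beyond 0.5. Btg1 stood at 33.3 CPM (28.9 to 38.2) in WT ESCs, 31.4 CPM (29.8 to 33.1) in KO ESCs, 24.1 CPM (20.4 to 28.3) in WT 48h-EpiLCs and 21.9 CPM (20.7 to 23.1) in KO 48h-EpiLCs. ESCs were higher than 48h-EpiLCs in each line, with log2 stage ratios of -0.47 (-0.78 to -0.15) and -0.52 (-0.63 to -0.41). The fall in KO cells was called by a margin of less than 0.01, and it was lost in 7 of 12 alternatives. Without the cells that carried markers of other types it was 0.35 below the median.

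Btg2, a target of p53, had 24.0 CPM (20.3 to 28.2) in WT ESCs, 27.3 CPM (25.8 to 28.9) in KO ESCs, 28.9 CPM (24.9 to 33.5) in WT 48h-EpiLCs and 34.6 CPM (33.1 to 36.1) in KO 48h-EpiLCs. KO 48h-EpiLCs were highest, above both ESC classes and with an interval that meets that of WT 48h-EpiLCs at its end, and the other 3 classes overlap. The stage ratio in KO cells was 0.34 (0.24 to 0.45) and not called. Without cells carrying markers of other types it was 0.61, which passed the threshold.

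Cells with feeder markers were rich in both genes. The 200 kept ESC-library cells with at least 3 feeder fibroblast markers had 191 CPM of Btg2 (176 to 207) and 161 CPM of Btg1 (147 to 175), against 23.8 and 30.6 CPM in the 10695 cells with fewer than 3 markers of any of the lists. Zfp36l1 (80.7 against 41.1 CPM), Zfp36l2 (54.1 against 36.9 CPM), Tob1 (25.9 against 15.2 CPM) and Tob2 (17.6 against 10.4 CPM) were also higher there. Pum2 was not (93.2 against 104.3 CPM), and the intervals of Btg3 and Rc3h1 overlapped between these cells and the others. Another 126 cells had 2 feeder markers and so lay just under the limit. In the 135 cells with at least 3 primitive endoderm markers, Zfp36l1 stood at 77.5 CPM (65.5 to 91.1) and Tob1 at 32.7 CPM (25.1 to 41.9), while Btg2 was at 23.2 CPM (16.9 to 31.1). These cells also had the pluripotency markers (Dppa5a 1084 CPM in cells with feeder markers, against 2664 CPM in cells with fewer markers), and free RNA, doublets and other cell types were not told apart. The difference in Zfp36l1 between the lines was as large without all of these cells (log2 ratio -1.03 in ESCs).

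Cell-to-cell variation of Btg2 was the highest among the members in the KO classes and in WT ESCs, but not in WT 48h-EpiLCs. After thinning to 5000 UMIs its variance was 1.82 times its mean in KO ESCs, above 98.5% of 5733 genes of at least 20 CPM, whose median was 1.04. Before thinning, up to 46 UMIs were found in 1 cell. Without cells carrying markers of other types the value was 1.26. In KO 48h-EpiLCs, where few cells carried such markers, it was 1.23, above 94.9% of genes, and 1.22 without those cells. In WT ESCs Btg2 had 1.26, above Btg1 (1.23), but without marked cells it had 1.05, below Btg1 (1.24). In WT 48h-EpiLCs Btg2 had 1.10, below Zfp36l2 (1.25) and Zfp36l1 (1.15). The variance of Tob2, Pum2 and Rc3h1 in KO 48h-EpiLCs was 0.99, 1.00 and 1.05 times the mean, close to the median of 1.03. Correlations between members over cells were weak in all 4 classes (Pearson's r from -0.10 to 0.14 over 36 pairs), and in counts this sparse they are given as a description alone.

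To see which cells held Btg2, cells without markers of other types were split at the 75th percentile of the summed thinned UMIs of a gene list, with ties placed in the upper part. The p53 target list (12 genes, Btg2 not among them) gave the widest split. CPM here is of the thinned UMIs. Btg2 stood at 41.5 CPM in the 873 KO ESCs high for p53 targets and at 14.8 CPM in the other 1955 (log2 ratio 1.48, interval 1.16 to 1.81). In KO 48h-EpiLCs it stood at 58.4 CPM in 832 cells and 26.4 CPM in 2120 cells (1.14, 0.89 to 1.40). Over all kept cells, whatever their line, the ratios were 1.73 in ESCs and 1.17 in 48h-EpiLCs. Each of these 4 ratios was above 99.9% of measured genes. The cells are from 1 culture per class and are no replicates, and the upper and lower cells share their library and thinned depth.

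Btg1 differed less along the same list, with ratios of 0.44 in KO ESCs and 0.43 in KO 48h-EpiLCs. The ratio of Tob1 was 0.27 (-0.14 to 0.67) in KO ESCs and 0.47 (0.06 to 0.87) in KO 48h-EpiLCs, and that of Tob2 was 0.44 (-0.03 to 0.91) and 0.48 (-0.03 to 0.97), so that 3 of these 4 intervals include 0. Over all kept cells, Tob1 had 0.26 (0.05 to 0.47) in ESCs and 0.26 (0.04 to 0.48) in 48h-EpiLCs. Tob2 had 0.01 (-0.24 to 0.26) and 0.37 (0.10 to 0.64) there. In KO cells, Btg3 (0.15 and -0.16), Zfp36l2 (-0.24 and -0.18) and Pum2 (0.11 and 0.01) had intervals that include 0 at both stages. Over all kept cells each of them had an interval clear of 0 at 1 stage only. These were Btg3 in 48h-EpiLCs (-0.23, -0.32 to -0.14), Zfp36l2 in ESCs (-0.18, -0.32 to -0.04) and Pum2 in 48h-EpiLCs (0.11, 0.02 to 0.20). Along the immediate early list (Fos, Jun, Egr1 and others), Btg1 had a ratio of 0.52 (0.24 to 0.80) in KO ESCs and Btg2 one of -0.06 (-0.39 to 0.27). Over all kept ESCs the 2 genes did not part in this way, with 0.53 (0.38 to 0.68) for Btg1 and 0.64 (0.47 to 0.81) for Btg2. The upper part began at 2 thinned UMIs of this list in KO ESCs and at 3 over all kept ESCs, so these splits are not at the same cut. In KO 48h-EpiLCs the ratio was 0.21 (-0.15 to 0.56) for Btg1 and 0.14 (-0.15 to 0.42) for Btg2. In KO ESCs high for naïve markers, Btg2 had a ratio of -0.62 (-1.02 to -0.24), and over all kept ESCs one of -0.59 (-0.80 to -0.39). The ratio was -0.02 (-0.28 to 0.24) in KO 48h-EpiLCs and 0.20 (0.04 to 0.35) over all kept 48h-EpiLCs. The upper part began at 10 thinned UMIs of the naïve list in ESCs and at 2 in 48h-EpiLCs, so it is not the same group at each stage. Zfp36l2 was 0.29 higher in KO 48h-EpiLCs high for formative markers, and 0.30 higher over all kept cells of that library.

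**Figure D4:**
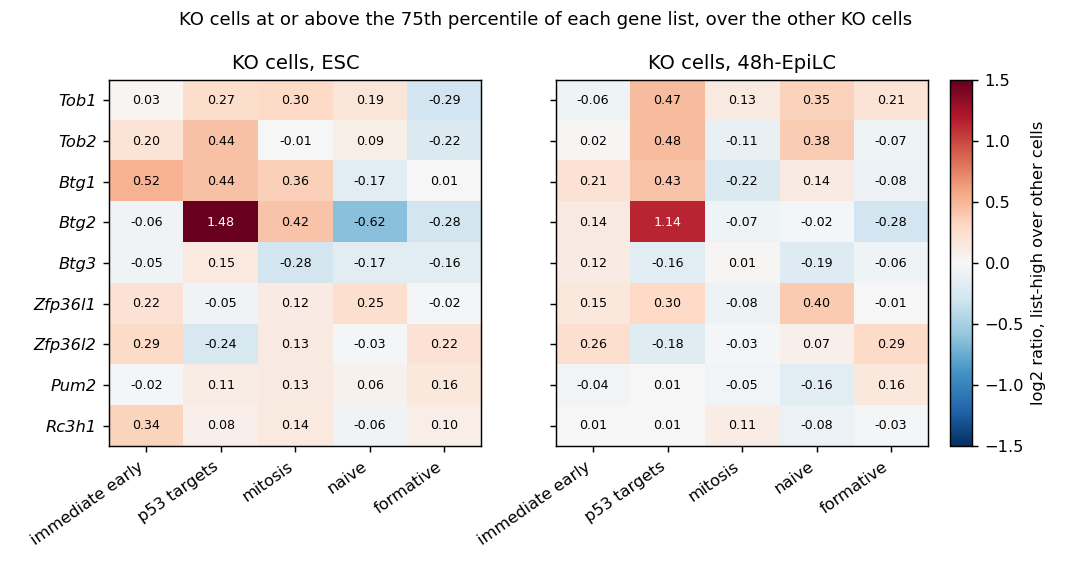
Each cell of the maps gives, for KO ESCs (left) and KO 48h-EpiLCs (right), the log2 ratio of CPM of a member (rows) between cells at or above the 75th percentile of a gene list (columns) and the other cells. The p53 target column of Btg2 holds the largest values, 1.48 and 1.14.

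Tob1 and Tob2, the anti-proliferative adaptors with Pabpc1-binding motifs, were near the low end of what could be measured. Tob1 had 12.5 CPM (9.87 to 15.6) in WT ESCs, 17.1 CPM (15.9 to 18.4) in KO ESCs, 16.1 CPM (13.1 to 19.6) in WT 48h-EpiLCs and 15.2 CPM (14.3 to 16.3) in KO 48h-EpiLCs. Only WT ESCs and KO ESCs had intervals apart, with a KO over WT ratio of 0.45 (0.11 to 0.81) that was not called. The WT ESC value rests on 77 UMIs in 70 cells. Tob2 had 11.2 CPM (8.72 to 14.2), 9.93 CPM (9.02 to 10.9), 11.6 CPM (9.06 to 14.6) and 10.0 CPM (9.21 to 10.8) in the same order, and all 4 intervals overlap. A difference of Tob2 was not detectable at this depth: the interval of KO over WT ran from -0.54 to 0.21 in ESCs and from -0.56 to 0.16 in 48h-EpiLCs.

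Pum2 and Rc3h1 were called in no comparison. Pum2 stood at 100.6 CPM (92.8 to 108.8) in WT ESCs, 116.2 CPM (113.1 to 119.5) in KO ESCs, 96.3 CPM (88.7 to 104.3) in WT 48h-EpiLCs and 106.3 CPM (103.7 to 109.0) in KO 48h-EpiLCs. Its KO over WT log2 ratios of 0.21 (0.09 to 0.33) and 0.14 (0.02 to 0.27) held the median of all genes within their intervals. Rc3h1 had 27.5, 27.7, 30.2 and 29.9 CPM in the same order, with KO over WT ratios of 0.02 (-0.22 to 0.26) and -0.01 (-0.23 to 0.21).

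**Figure D5:**
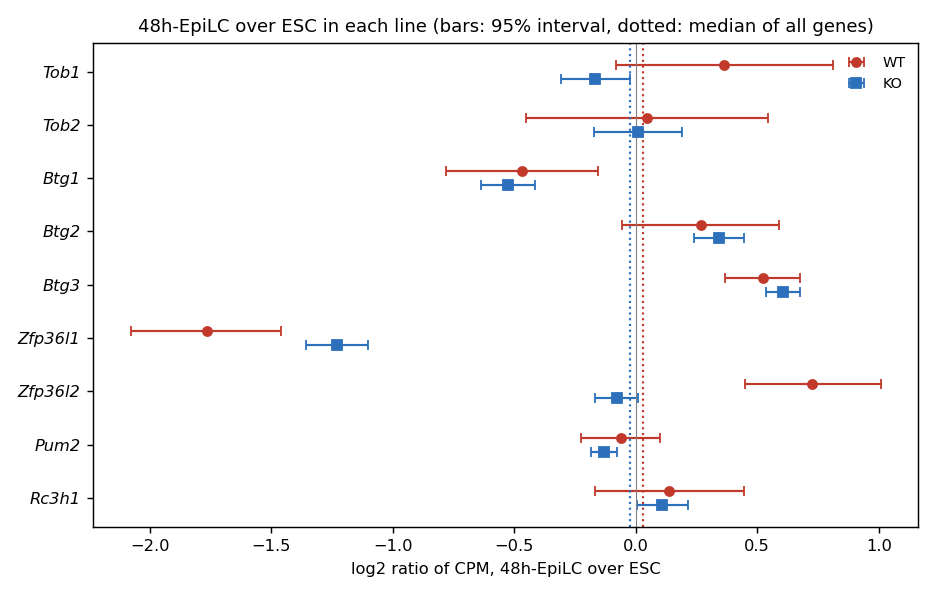
Points give the log2 ratio of CPM, 48h-EpiLC over ESC (x axis), of each member (y axis) in WT and KO cells, bars the exact 95% interval of counting error, and dotted lines the median of all measured genes in each line. Zfp36l1 lies farthest left in both lines (-1.76 and -1.23), and Zfp36l2 is higher with stage in WT cells (0.73) and near 0 in KO cells (-0.08).

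A list of 26 other genes that recruit or are reported to recruit Ccr4-Not was counted for comparison. In ESCs 18 of them were measured, of which 2 were higher in KO cells (12.2% of all genes) and 0 lower (11.1% of all genes). Dnd1, a germ cell RNA-binding protein, stood at 8.12 CPM in WT and 14.8 CPM in KO ESCs (log2 ratio 0.87, 0.45 to 1.32), and Cpeb4, a cytoplasmic polyadenylation factor, at 4.55 and 7.14 CPM (0.65, 0.09 to 1.26). In 48h-EpiLCs 1 of 16 was higher, again Dnd1 (8.20 CPM in WT and 18.4 CPM in KO cells, 1.16, 0.76 to 1.60), and 0 were lower, beside 9.23% and 8.69% of all genes. The median ratio of the measured other recruiters was 0.30 in ESCs and -0.01 in 48h-EpiLCs, beside 0.02 and -0.14 for the 9 members and 0.13 and 0.08 for all genes.

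Calls with stage among the other recruiters went both ways in WT cells and down in KO cells. In WT cells 4 of 17 were lower (Nanos1, Caprin1 and Helz among them) and 3 were higher (Zfp36, Mex3c and Mex3d), beside 16.3% and 16.7% of all genes. The call of Nanos1 rests on 48 UMIs in WT ESCs and 33 in WT 48h-EpiLCs, and its interval includes 0 (log2 ratio -0.56, -1.24 to 0.11). Its stage ratio in KO cells was 0.04 (-0.16 to 0.25). In KO cells 5 of 18 were lower (Nanos3, Cpeb4, Caprin1 and Helz among them) and 0 higher, beside 13.3% and 13.2% of all genes. Nanos3 and Cpeb4 had a mean under 5 CPM in the WT comparison, so they could not be called there. Their ratios in WT cells were also below 0. Nanos3 went from 5.85 to 0.32 CPM (log2 ratio -4.19, -7.28 to -2.23) and Cpeb4 from 4.55 to 1.45 CPM (-1.65, -2.92 to -0.53). Pum2 had stage ratios of -0.06 in WT cells and -0.13 in KO cells. Zfp36, the founding member of the Zfp36 family, was 1.83-fold higher in WT 48h-EpiLCs (11.5 CPM in ESCs and 21.1 CPM in 48h-EpiLCs), the same direction as Zfp36l2 and the opposite of Zfp36l1. The stage difference of its line ratio was -0.67 (-1.11 to -0.23), beside -0.75 for Zfp36l2.

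For each member, the 2 genes of at least 20 CPM (5573 genes) with the most similar profile over the 4 classes were found by the Euclidean distance of centred log2 CPM. Peg10 (distance 0.17) and Gpa33 (0.20) were nearest to Zfp36l1, and no other gene lay within 0.2. Peg10, an imprinted gene derived from a retrotransposon, had 247.1, 108.0, 71.2 and 51.9 CPM in WT ESCs, KO ESCs, WT 48h-EpiLCs and KO 48h-EpiLCs. Mthfd2 (0.10) and Gpt2 (0.12) were nearest to Zfp36l2, with 25 genes within 0.2, and Rnd3 and Foxk2 (both 0.13) to Btg3, with 11. For the other 6 members between 145 and 745 genes lay that close, so their nearest genes (Mia2 and Zfand3 for Tob1, Ipo5 and Brwd3 for Tob2, Klf10 and Syncrip for Btg1, Jtb and Mob2 for Btg2, Chmp4b and Cd164 for Pum2, and Csnk2b and Nol7 for Rc3h1) carry little information. With 4 classes, similarity of profile is a description.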

How the data were processed

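The deposited values were counts of UMIs for each gene in each barcode. The authors ran Cell Ranger 3.0.2 on mm10 with the tdTomato coding sequence added (10x 3′ chemistry). The submitters' processing notes also name Seurat 4. No normalization of the deposited counts is stated.

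UMIs were summed over the cells of each class and scaled to CPM (Python 3.11.15, scipy 1.17.1). A gene was measured at a mean of at least 5 CPM in the 2 classes compared, and called at 0.5 log2 from the median of measured genes. Cells are not replicates and each stage had 1 library, so p-values are not given and no test was made. Ratios carry exact 95% binomial intervals, levels exact Poisson intervals, and differences of ratios a normal interval from the standard errors of log counts. No doublet caller was run: the line rule leaves out cells with tdTomato and Y-linked UMIs (35 with at least 2 of the latter per library), and an alternative left out the top 10% of cells by UMIs. Alternatives were TMM scaling (edgeR 4.0.16), CPM + 1, no filter on low genes, thinning to 5000 UMIs, 10000 to 20000 UMIs per cell, removal of cells with at least 3 markers of other types, 3 other line rules, a stricter cell filter and the mean of the cells' own CPM. The ratio code was tested on simulated counts. Positions and 3′ UTRs came from GENCODE M21 (GRCm38, the build of mm10), with the longest 3′ UTR per gene. Genes were named by rule: all members, other recruiters where measured and called, the partners Cnot8, Cnot7, Cnot1 and Pabpc1, and for each member the 2 genes nearest in profile. The members, lists and thresholds were chosen with earlier results of these data known. Values of 1 other recruiter and some motif sites are not reported here.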

Additional observations from a re-analysis of the deposited data

Results flagged for a closer look

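Zfp36l2 was flagged because its KO over WT log2 ratio pointed in opposite directions at the 2 stages, 0.58 (95% counting interval 0.35 to 0.81) in ESCs and -0.23 (-0.40 to -0.04) in 48h-EpiLCs. With 1 library per stage the difference was not tested against the variation between cultures. Both ratios kept their sign in all 12 alternative settings, of which leaving out the filter on low genes could not change a ratio.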

How the results depend on the processing

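The member ratios and the counts of members called were recomputed under 12 alternative settings and 1 that was added after the data had been seen, the median of each member's own chromosome as reference. Of 468 member ratios under these settings, 449 stayed within the counting interval of the reported ratio, 19 moved outside it and 0 reversed a call. Part of these ratios could not move. Leaving out the filter on low genes and using the own-chromosome reference change only the reference median, not a ratio. The stricter line rule left the WT classes as they were, so the WT stage ratios were the same there. The calls of Btg3 and Zfp36l1 as lower in KO ESCs, of Btg3 as lower in KO 48h-EpiLCs, of Zfp36l1 as lower with stage in both lines and of Btg3 as higher with stage in KO cells held in all 12 alternative settings other than the own-chromosome reference. Of 117 counts of called members, 90 stayed within 1.5 times the reported count.

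The count of members lower in KO ESCs went from 2 to 1 with the own-chromosome reference, and so did that in KO 48h-EpiLCs, where Btg3 was the member lost. In KO 48h-EpiLCs it was also 1 with CPM + 1, without the filter on low genes, in cells of 10000 to 20000 UMIs, under the looser line rule, with Y-linked UMIs alone and with the mean of the cells' own CPM, where Zfp36l1 was lost. The count higher in KO ESCs went from 0 to 1 (Zfp36l2) after thinning and under the stricter cell filter. With stage in WT cells, the count higher was 2 without the filter on low genes (Btg3 added) and 3 after thinning (Tob1 and Rc3h1 added). With Y-linked UMIs alone it stayed at 1, with Btg3 called in place of Zfp36l2. In the same comparison, the count lower was 2 (Btg1 added) under the looser line rule, with Y-linked UMIs alone, with the mean of the cells' own CPM and with the own-chromosome reference. With stage in KO cells, the count higher was 2 (Btg2 added) in cells of 10000 to 20000 UMIs, without the top 10% of cells by UMIs and without cells carrying markers of other types. The count lower there was 1 (Btg1 lost) under these same 3 settings and with CPM + 1, no filter on low genes, the looser line rule and the mean of the cells' own CPM. The count of members with a stage-dependent line ratio was 0 with Y-linked UMIs alone. It was 3 (Tob1 added) under the looser and the stricter line rule, under the stricter cell filter and without the top 10% of cells by UMIs, and it stayed at 2 after thinning, with Tob1 called in place of Zfp36l1. The causes were not tested. The splits by gene list, variances, marked-cell levels, motif medians, profile neighbours and ratios of other recruiters were not recomputed under these settings.

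TMM scaling moved the median of all genes by -0.10 (log2) for KO over WT in ESCs and by at most 0.05 elsewhere. No replicate could be left out with 1 library per stage. No paired analysis was possible because each stage had 1 library and no result came from a test. Depth limits Tob1 and Tob2 most, with 69 to 100 UMIs in the WT classes.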

Other observations

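The AU-rich core and the Pumilio motif were also counted in the 3′ UTRs of all measured genes, as a view of the mRNAs that carry the motifs these members read. In KO over WT, genes with at least 3 TATTTAT copies had a median log2 ratio of 0.07 in ESCs (340 genes) and 0.01 in 48h-EpiLCs (343 genes), against 0.13 and 0.08 for genes with 0 copies (6298 and 6388 genes). For the Pumilio motif the medians were 0.12 and 0.06 with at least 3 copies (254 and 252 genes) and 0.13 and 0.08 with 0. With stage in KO cells, genes with 0, 1, 2 and at least 3 Pumilio motifs had medians of -0.01, -0.05, -0.07 and -0.14, and in WT cells of 0.04, 0.01, 0.04 and -0.06. The 3′ UTRs of these groups differ in length (medians of 857 bases with 0 copies and 3782 with at least 3 in the KO stage comparison), and the part of length was not tested.

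In the 36 cells of the 48h-EpiLC library with at least 3 markers of 2-cell-like cells, Btg2 stood at 102 CPM (95% Poisson interval 78.0 to 131.5) and Btg1 at 59.6 CPM (41.5 to 82.9), against 32.1 and 22.1 CPM in the 9362 cells with fewer markers of any list. In the 26 such cells of the ESC library Btg2 and Btg1 were each at 55.4 CPM (33.4 to 86.5), from 19 UMIs.

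Chromosome 16 had a KO over WT median of -0.19 in ESCs and -0.23 in 48h-EpiLCs when cells of at least 15000 UMIs were assigned by Y-linked UMIs alone, without tdTomato.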
